A study of Mus musculus with 4 samples.

Results

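Ccl3, Ccl4, Ccl5 and Xcl1 are chemokine genes that activated and tissue-resident lymphocytes express. They were read here as every probe set that the platform table assigns to one of these 4 symbols alone, which gave 4 probe sets, 1 per gene, of 45101 on the array. All 4 genes were among the 12425 genes compared, and each exceeded the median signal of its array on every array. The RNA came from gamma delta intraepithelial lymphocytes sorted from the colon of conventionally raised C57b/6 mice. In the DSS group the mice drank 2% dextran sulfate sodium, which damages the colon lining, over 5 days, and had 3 days of recovery on plain water. In the untreated group the mice received no treatment. Each group had 2 samples, each read on 1 array. Whether each sample came from separate or pooled animals is not given by the labels, so the p-values speak of the spread between these arrays, and that spread may be technical.

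Chemokines are small secreted proteins that draw leukocytes along a gradient through G protein-coupled receptors. Ccl3 (MIP-1 alpha), Ccl4 (MIP-1 beta) and Ccl5 (RANTES) are CC chemokines that recruit T cells, monocytes and natural killer cells. Xcl1 (lymphotactin) is the C chemokine of lymphocytes and attracts cross-presenting dendritic cells through Xcr1. Memory T cells hold abundant Ccl5 transcript before any stimulus, whereas Ccl3, Ccl4 and Xcl1 transcripts are induced quickly by T cell receptor signalling. Macrophages, mast cells and natural killer cells can also make several of these chemokines.

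The arrays of the groups differed as a whole. The hybridisation controls, transcripts added to every sample, had geometric mean signals of 6308 and 6192 on the DSS arrays and 44427 and 29832 on the untreated arrays. The brightest signal was 80427 and 100455 on the DSS arrays, against 281602 and 250101 on the untreated arrays. These differences follow the groups, so that treatment and array handling cannot be told apart. Replicates correlated across the genes compared at r = 0.920 within DSS and r = 0.794 within untreated. Arrays of different groups correlated at r = 0.817 to 0.854, so the untreated replicates were less alike than any DSS and untreated pair. As a check of the labelled cell type, 15 of 15 T cell and intraepithelial lymphocyte markers were above the array median on every array. Among them Cd3g, a chain of the T cell receptor complex chosen here after its values were seen, had 17026 and 13219 on DSS arrays and 10949 and 12540 on untreated arrays. Trdc, the delta chain constant gene, was not analysed here.

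Ccl5 had the lower signal after DSS. Its signals were 55885 and 65842 on the DSS arrays, against 166892 and 171899 on the untreated arrays. The groups lay far apart and their replicates close together, by 0.24 log2 within DSS and 0.04 log2 within untreated. The mean signal was 60863 ± 7041 in DSS and 169396 ± 3540 in untreated samples (SD, n = 2 each), 2.78-fold lower after DSS. In such bulk RNA, fewer cells of a type and less RNA per cell cannot be told apart. On the log2(signal + 32) scale, on which all differences are given, the difference was -1.48 ± 0.34 (SE), with a 95% confidence interval of -2.28 to -0.69. It did not pass the test across all genes (limma adjusted p = 0.565). Limma passed 0 of 12425 genes at an adjusted p of 0.05 (0%), and 935 genes (7.53%) had an unadjusted p under 0.05, Ccl5 among them. With 2 arrays against 2, an exact two-sided permutation test of a single gene cannot go below p = 0.333.

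Leaving out 1 untreated array changed that call. Without untreated replicate 1 the difference was -1.50 (adjusted p = 0.00464, with 1785 genes called), and without untreated replicate 2 it was -1.46 (adjusted p = 0.00747, with 752 genes called). In these fits the lone untreated array is assumed to vary as the DSS arrays do. Without DSS replicate 1 and without DSS replicate 2 the differences were -1.36 and -1.60, both with an adjusted p of 1.00.

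**Figure D1:**
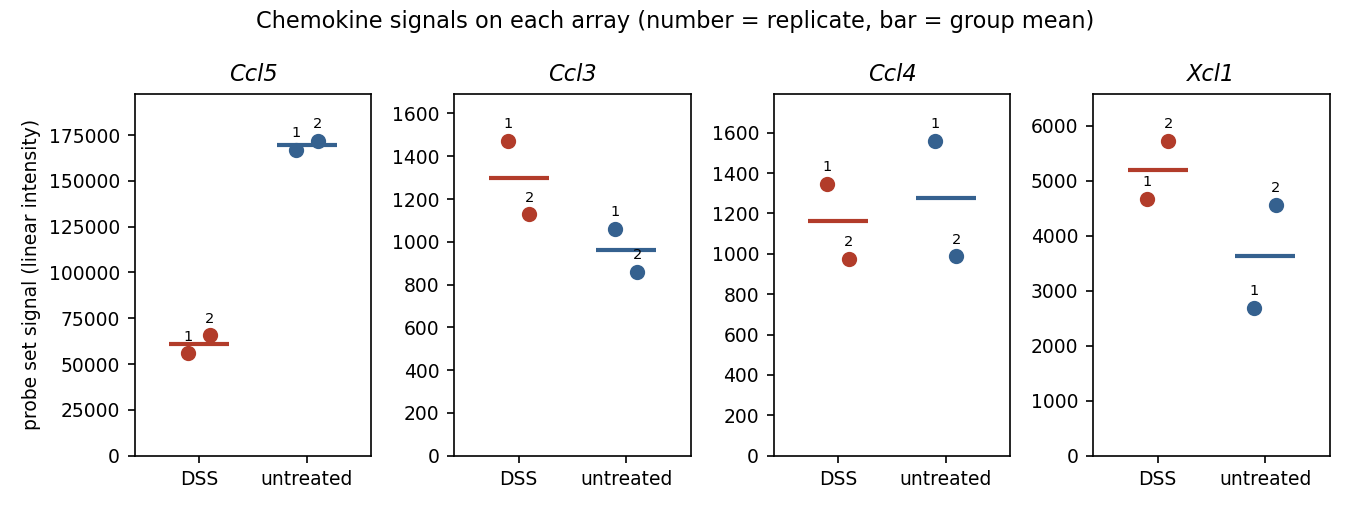
Linear probe set signal (vertical axis, from 0) of the 4 chemokine genes on each array, with DSS and untreated samples side by side; points are arrays numbered by replicate and bars are means of 2 arrays. Ccl5 lies near 60863 in DSS and 169396 in untreated samples, while the arrays of Ccl4 intermingle.

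Ccl5 is among the brightest probe sets, and such probe sets were dimmer on the DSS arrays in general. Among the 45037 probe sets that are not controls, Ccl5 ranked 28 and 45 from the brightest on the DSS arrays, and 15 on both untreated arrays. Its signal was 69.5% and 65.5% of the brightest such signal on the DSS arrays, against 59.3% and 68.7% on the untreated arrays. By this measure, relative to the top of each array, the groups overlap. A rank reflects how well a probe set binds as well as the amount of transcript.

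The 100 tested genes closest to Ccl5 in mean log2 signal had a median difference of -0.52, with quartiles of -0.90 and -0.32. Of these, 89 had a difference below 0, and 2 were as low as Ccl5 or lower. Few tested genes are as bright as Ccl5, so the 100 closest reach down to a mean of 14.99 log2, against 16.63 for Ccl5. When unnamed probe sets and those with several gene symbols were admitted, the 100 closest had a median of -0.91, and 7 were as low as Ccl5 or lower. The 50 closest had a median of -1.11, 4 were as low or lower, and 33 of them carried a symbol of a cytosolic ribosomal protein. Ccl5 thus lay 0.96 log2 below the median of the 100 closest genes, 0.58 below that of the 100 closest probe sets and 0.37 below that of the 50 closest.

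**Figure D2:**
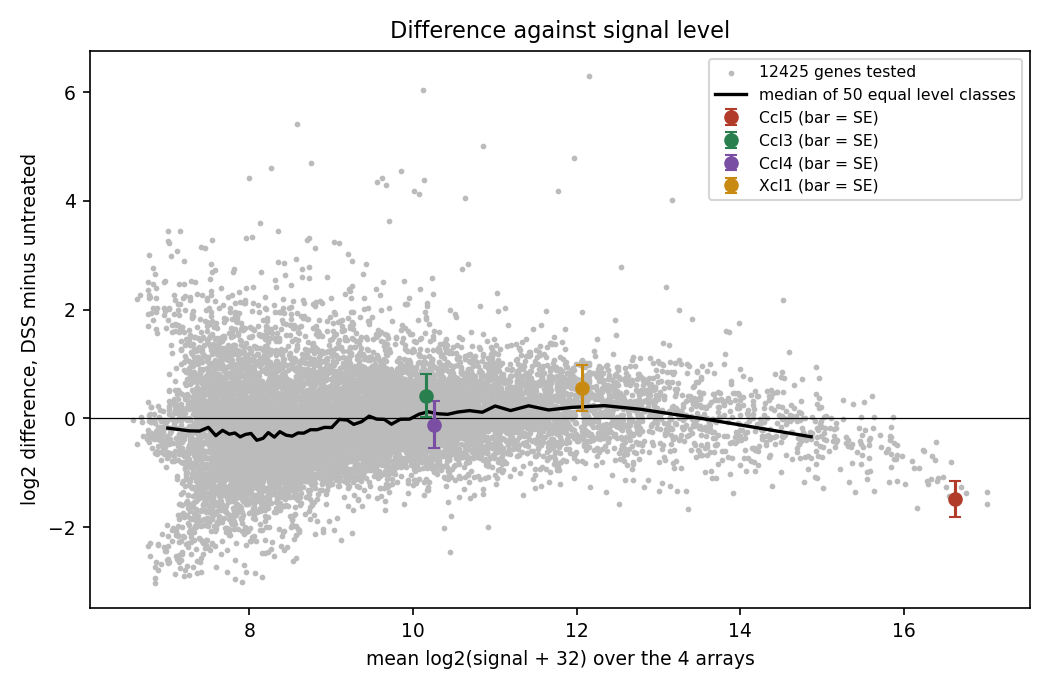
Log2 difference (DSS minus untreated) against mean log2(signal + 32) over the 4 arrays for 12425 genes (grey), with the median in 50 classes of equal size (line, ending at the median of the brightest class) and the 4 chemokine genes with SE bars. Genes of about the brightness of Ccl5 lie mostly below 0 with it, while Ccl3, Ccl4 and Xcl1 lie within the band of genes of their level.

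Scaling changed the size for Ccl5 more than for the others. The difference was -1.14 ± 0.30 after scaling to a common median, -1.09 ± 0.27 after cyclic loess, -1.31 ± 0.42 when each array was centred on the T cell markers, and -0.25 ± 0.25 after quantile normalization. After quantile normalization the log2 values were 16.69 and 16.52 in DSS and 16.77 and 16.95 in untreated samples, so the groups stayed apart by only 0.07 log2. Relative to the 100 closest probe sets the distance was -0.58 as deposited, -0.50 after cyclic loess and -0.32 after quantile normalization, with 7, 7 and 9 of the 100 as low or lower.

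**Figure D3:**
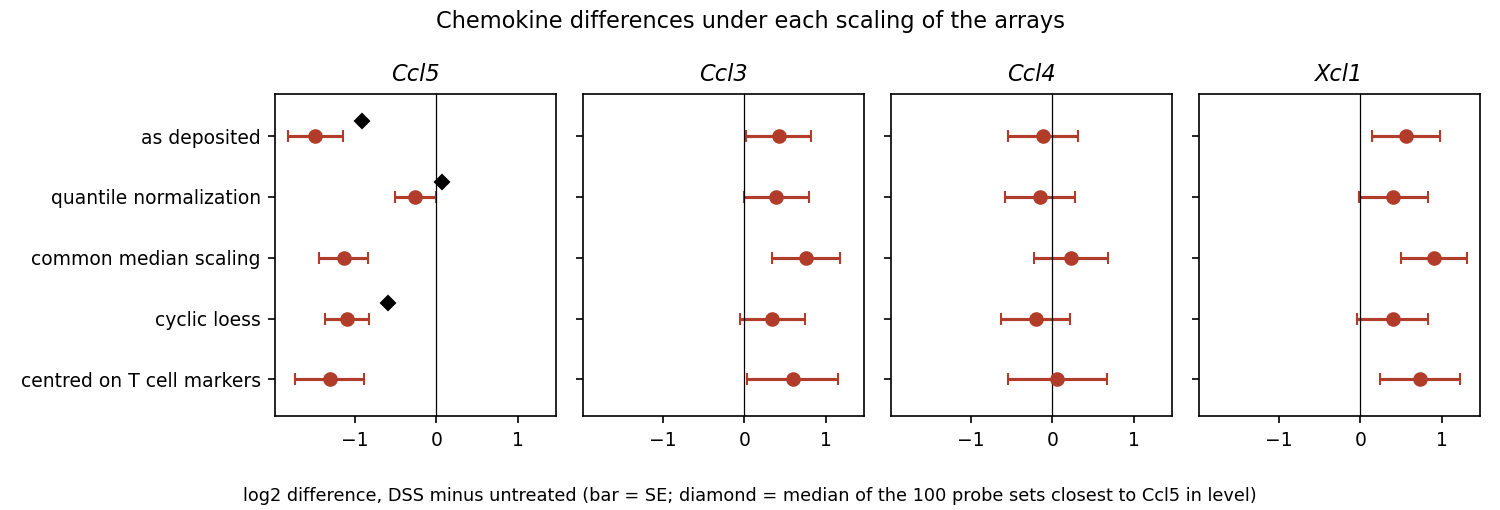
Log2 difference (DSS minus untreated, horizontal axis) with SE bars for each chemokine gene under 5 scalings of the arrays (rows); diamonds mark the median of the 100 probe sets closest to Ccl5 in level, under the 3 scalings for which it was computed. For Ccl5 the difference runs between -1.48 and -0.25 and the diamonds move with it, whereas Ccl4 lies on either side of 0.

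Ccl3 had signals of 1472 and 1128 in DSS and 1061 and 861 in untreated samples. Both DSS arrays were above both untreated arrays, but by 0.09 log2 at the nearest, less than the 0.37 log2 between the DSS replicates. The difference was 0.42 ± 0.40 (95% confidence interval -0.52 to 1.36; adjusted p = 0.771). The 100 genes closest to Ccl3 in level had a median of 0.02, and 27 of them were as high as Ccl3 or higher. Leaving out single arrays gave 0.23 (without DSS replicate 1) to 0.61 (without DSS replicate 2). Its difference was 0.34 to 0.76 over the scalings tried, and the groups overlapped when arrays were centred on the T cell markers.

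Ccl4 had signals of 1349 and 975 in DSS and 1561 and 989 in untreated samples. The groups overlapped, with replicate 1 the higher array in each. The difference was -0.11 ± 0.43 (95% confidence interval -1.13 to 0.91; adjusted p = 0.948). Its sign turned under scaling, to 0.22 after scaling to a common median and 0.061 when centred on the T cell markers. Leaving out untreated replicate 1 gave 0.21 and leaving out DSS replicate 2 gave 0.11. The interval is wide on both sides of 0, so these arrays do not show that Ccl4 was unaltered. Among the 100 genes closest in level, whose median was 0.13, 36 were as low as Ccl4 or lower.

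Xcl1 had signals of 4672 and 5728 in DSS and 2687 and 4563 in untreated samples. Both DSS arrays were above both untreated arrays, although DSS replicate 1 and untreated replicate 2 differed by only 0.03 log2, and the untreated replicates differed by 0.76 log2. The difference was 0.56 ± 0.42 (95% confidence interval -0.44 to 1.55; adjusted p = 0.722). The value turned on the untreated arrays. Without untreated replicate 1 the difference was 0.18, and without untreated replicate 2 it was 0.94. Among the 100 genes closest in level, whose median was 0.18, 19 were as high as Xcl1 or higher. Centred on the T cell markers, the log2 values were 12.28 and 12.58 in DSS and 11.69 and 11.71 in untreated samples, a difference of 0.73 ± 0.49. In that scaling the untreated replicates nearly coincide. After quantile normalization and after cyclic loess the groups overlapped, with differences of 0.40 in each.

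In all, 2 of the 4 chemokine genes had both DSS arrays above both untreated arrays, where 17.2% of all genes tested did. The 1 gene with both DSS arrays below, Ccl5, compares with 23.8% of all genes. Among the 100 genes closest to Ccl5 in level, 62 had both DSS arrays below and 0 had both above, so this was usual at its brightness. Counting only gaps of at least 2-fold as deposited, Ccl5 is again the 1 gene below, against 2.38% of all genes, and 0 of the 4 lay above, against 2.18%. Of the 100 genes closest to Ccl5 in level, 9 were also at least 2-fold below. The Ccl5 gap was -1.34 log2 as deposited and -1.03 after cyclic loess. It fell short of 2-fold after common median scaling (-0.995), when centred on T cell markers (-0.84) and after quantile normalization (-0.07). The 4 genes are too few for these shares to be read as a result. Their differences had both signs, at -1.48, -0.11, 0.42 and 0.56.

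The RefSeq promoter table (GRCm38.p6) holds 2 of the 4 genes, Ccl3 and Xcl1, the pair whose signals were higher on both DSS arrays. Each window runs from 250 bases before to 50 bases after the annotated start, 5′ to 3′ on the gene's own strand, the minus strand for both. The Ccl3 window is chr11:83649329-83649628 and the Xcl1 window is chr1:164935473-164935772. Capitals mark every match to 6 short motifs, chosen because such sites are known in T cell activation genes: AP-1 (TGANTCA), the NFAT core (GGAAA), the T-box site (GGTGTGA), the Runx site (TGTGGT), the NF-kB consensus and, on the gene's strand only, a TATA element (TATAA). The others were searched on both strands, and no matches overlap in these windows.
Ccl3: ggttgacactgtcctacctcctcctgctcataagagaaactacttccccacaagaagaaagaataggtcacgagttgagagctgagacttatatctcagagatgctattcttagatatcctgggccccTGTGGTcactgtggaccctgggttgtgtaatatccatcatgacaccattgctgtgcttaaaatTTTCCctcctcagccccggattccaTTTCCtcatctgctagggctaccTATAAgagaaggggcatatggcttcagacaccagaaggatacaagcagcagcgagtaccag
Xcl1: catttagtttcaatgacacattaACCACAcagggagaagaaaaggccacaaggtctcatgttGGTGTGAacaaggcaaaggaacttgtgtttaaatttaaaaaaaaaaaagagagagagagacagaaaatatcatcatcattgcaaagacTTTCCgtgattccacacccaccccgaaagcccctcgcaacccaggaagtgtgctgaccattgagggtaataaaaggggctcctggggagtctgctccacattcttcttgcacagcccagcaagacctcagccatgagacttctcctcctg

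The Ccl3 window holds a Runx match at -122 to -117, NFAT cores on the opposite strand at -59 to -55 and -34 to -30, and a TATA element at -11 to -7, counted from the annotated start. The Xcl1 window holds a Runx match at -227 to -222 and an NFAT core at -100 to -96, both on the opposite strand, and a T-box match at -188 to -182. Of 32851 promoter windows of this length, 61.3% hold an NFAT core, 16.8% a Runx match, 17.5% a TATA element and 3.98% a T-box match. AP-1 and NF-kB matches, in 7.81% and 4.51% of all windows, are not in either window. The Runx and NFAT matches are thus common to both windows, and the T-box match is in that of Xcl1. A match of letters is a description and not evidence of binding.

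Ccl3 and Ccl4 are next to each other on chromosome 11 in the reference gene order, and Ccl5 lies in the same chemokine cluster, while Xcl1 is on chromosome 1. Among the 3 genes on either side of each, the other tested chemokines were Ccl6 beside Ccl3 and Ccl9 beside Ccl5, both chemokines of myeloid cells. Ccl9 had signals of 1182 and 7123 in DSS and 176 and 239 in untreated samples, a difference of 3.63 ± 0.79 (adjusted p = 0.548). Ccl6 had 907 and 13716 in DSS and 441 and 39.4 in untreated samples, a difference of 4.29 ± 1.32 (adjusted p = 0.648) on a probe set that can bind related transcripts. The other probe set of Ccl6 gave 4.51. On the brightest probe sets of Ccl9 and Ccl6, DSS replicate 2 was far the higher array, which was not so for Ccl3 or Ccl4. Beside Xcl1, Dpt, an extracellular matrix protein gene, had dim signals of 35.3 and 178 in DSS and 281 and 335 in untreated samples, with a difference of -1.51 ± 0.79. The neighbouring noncoding genes E230016K23Rik, beside Ccl5, and 1700029M03Rik, beside Xcl1, were too dim to be tested.

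The tested genes most like each chemokine over the 4 arrays were found by the root mean square difference of their log2 values, each centred on its own mean. For Ccl5 these were Synpo2, Gm32960 and Pla2g6, a phospholipase gene, at 0.03, 0.03 and 0.04 log2. Synpo2, nearest in profile, had signals of 90.9 and 119 in DSS and 337 and 360 in untreated samples. For Ccl3 they were S100a14, Usp48 and the autophagy gene Atg16l1, at 0.02 to 0.03 log2. For Ccl4 they were Ndufaf7, D16Ertd472e and Acadsb, at 0.02 to 0.04 log2, and for Xcl1 Gpr137b, Mfsd6 and Emc10, at 0.01 to 0.03 log2. With 4 arrays many genes can share such a profile, and 0 of these 12 genes is a chemokine.

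Of the receptors and scavengers of these chemokines, 3 of the 5 on the array were tested, and 0 passed. Their median was -0.14, and it was -0.78 without untreated replicate 1 and 0.50 without untreated replicate 2. Ccr1, which binds Ccl3 and Ccl5, had 358 and 613 in DSS and 302 and 221 in untreated samples, a difference of 0.79 ± 0.49 (adjusted p = 0.690). Ackr2, a decoy receptor that removes CC chemokines, had 150 and 130 in DSS and 573 and 333 in untreated samples on its brightest probe set, a difference of -1.45 ± 0.55 (adjusted p = 0.648). That probe set passed the filter through the untreated arrays alone. The other probe sets of Ackr2, both dimmer, gave 1.50 and 0.24, so its direction is not settled. Ackr1, the atypical receptor of red cells and venules, had 373 and 311 in DSS and 232 and 609 in untreated samples, a difference of -0.14 ± 0.56. The eosinophil receptor Ccr3 (36.4 and 40.9 in DSS, 119 and 26.0 in untreated) and Xcr1, the receptor of Xcl1 (46.7 and 137 in DSS, 48.9 and 199 in untreated), were below the array median on at least 3 arrays and were not tested.

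Other chemokines had differences of both signs. Of the 30 on the array, whether or not they passed the filter on low signals, 16 had a difference above 0 and 14 below. Both DSS arrays were above both untreated arrays for 12 and below for 6, where 14.8% and 25.1% of all 18194 genes without the filter were. Their median was 0.35, against -0.14 over all genes. Of the 16 that passed the filter, 4 did so through the DSS arrays alone, Cxcl9 among them, so that their median of 1.54 is partly set by the filter. The median was 0.90 over the 5 genes above the median on all arrays. Cxcl9, an interferon-induced attractant of T cells, had 570 and 1000 in DSS and 32.9 and 64.4 in untreated samples (3.32 ± 0.61, adjusted p = 0.455), but its other, dimmer probe set gave -1.05. Cxcl2, an attractant of neutrophils, had 4348 and 18721 in DSS and 443 and 7.49 in untreated samples (6.05 ± 1.17, adjusted p = 0.475). Pf4, the platelet factor, had 1278 and 2153 in DSS and 381 and 268 in untreated samples (2.26 ± 0.45, adjusted p = 0.475). Of these 16 genes, 0 passed adjustment.

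**Figure D4:**
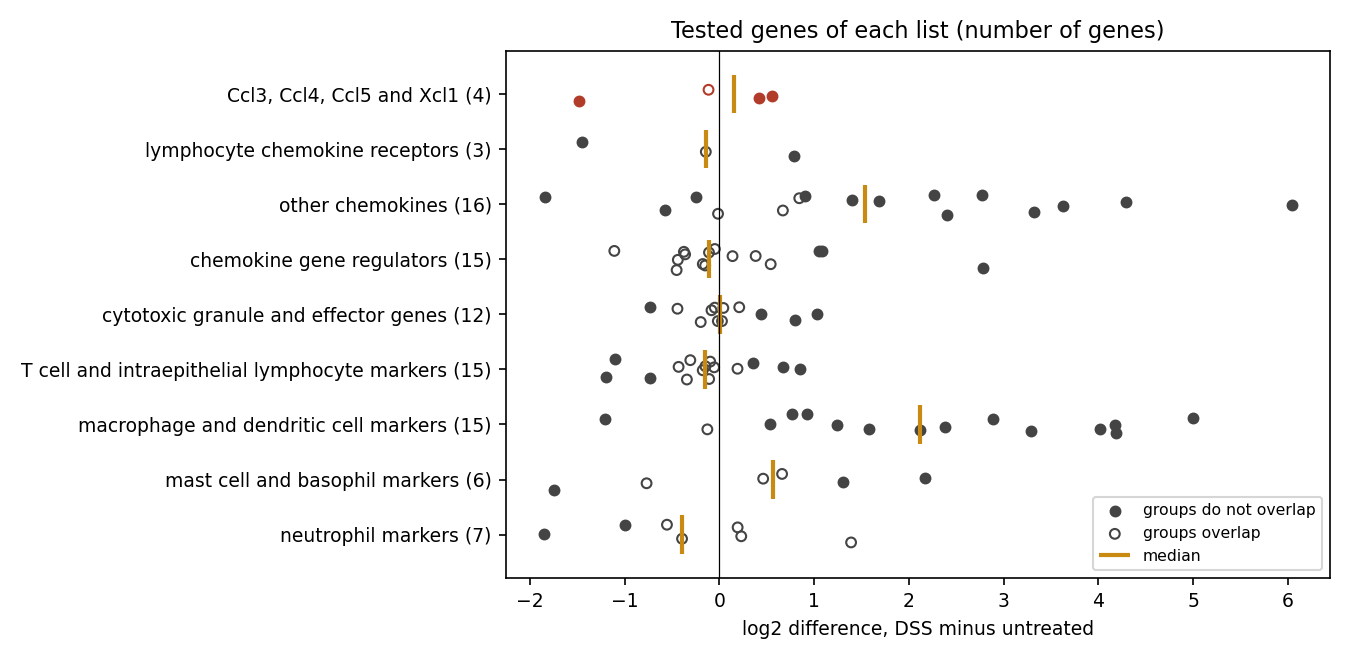
Log2 differences (DSS minus untreated, horizontal axis) of the tested genes of each list, 1 point per gene, filled where the DSS and untreated arrays do not overlap, with the list median as a bar. The 4 chemokine genes spread between -1.48 and 0.56. The medians of the other chemokines and of the macrophage and dendritic cell markers are 1.54 and 2.12 over the tested genes shown, and 0.35 and 1.09 over all their genes on the array.

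Regulators of lymphocyte chemokine genes and of their mRNAs came next. Of 15 tested, 3 had both DSS arrays above both untreated arrays, 0 had both below, against 17.2% and 23.8% of all genes tested. The share above is near that of all genes. The median was -0.11, and it was -0.50 without untreated replicate 1 and 0.36 without untreated replicate 2. The 3 were Fos, an AP-1 subunit, Jun, its partner, and Zfp36 (tristetraprolin), which speeds the decay of cytokine and chemokine mRNAs. Fos had 14755 and 16634 in DSS and 5386 and 931 in untreated samples (2.78 ± 0.76, adjusted p = 0.648). Zfp36 had 1009 and 1576 in DSS and 624 and 561 in untreated samples (1.05 ± 0.42), and Jun 1156 and 1592 in DSS and 458 and 837 in untreated samples (1.09 ± 0.46). Tbx21 (T-bet), a driver of effector genes, had a difference of -0.11 ± 0.45, and Klf13, a late activator of CCL5 in human T cells, one of -0.15 ± 0.41. Runx3 had 0.54 ± 0.55 on its brightest probe set and -1.85 on its other one, so its direction is not settled. These 3 genes were named after their values were seen.

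The cytotoxic and effector genes, which lymphocytes express along with these chemokines, centred on 0.01 (median of 12 genes), and 3 were higher and 1 lower without overlap, against 17.2% and 23.8% of all genes, with 0 passing. Gzmb (granzyme B), a bright gene, had 35792 and 40271 in DSS and 65870 and 60139 in untreated samples, a difference of -0.73 ± 0.34 (adjusted p = 0.652). Fasl, the death ligand, had 15095 and 11925 in DSS and 11089 and 3875 in untreated samples (1.03 ± 0.54), and Lamp1, a granule membrane protein, 6796 and 8298 in DSS and 4324 and 4266 in untreated samples (0.80 ± 0.37). Between the untreated arrays, bright effector genes differed by 1.82 log2 for Gzma, 1.98 for Nkg7 and 1.41 for Ctsw, but by 0.13 for Gzmb and 0.28 for Srgn, and Ccl5 differed by 0.04. Gzma, Nkg7, Ctsw and Srgn were named after their values were seen. The T cell and intraepithelial lymphocyte markers centred on -0.15 (median of 15 genes), with 3 higher and 3 lower without overlap, against 17.2% and 23.8% of all genes. The sign of that median rests on the untreated arrays and the scaling, at -0.80 without untreated replicate 1, 0.38 without untreated replicate 2 and 0.18 after scaling to a common median. Among the markers, the integrin Itgae had 43558 and 43518 in DSS and 101512 and 98460 in untreated samples (-1.20 ± 0.33 on its brightest probe set, 0.52 on the other). Zap70, a kinase of the T cell receptor, had a difference of -1.10 ± 0.39 on a probe set that may bind other transcripts. Its other probe sets, both dimmer, gave -0.82 and -0.24. The activation marker Cd69 had a difference of 0.85 ± 0.38.

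Markers of macrophages and dendritic cells, which can also make several of these chemokines, mostly had higher signals on the DSS arrays. Of the 20 on the array, filtered or not, 16 had a difference above 0, 13 were higher on both DSS arrays and 1 was lower. Of all 18194 genes without the filter, 14.8% were higher and 25.1% lower in this way. The median of the 20 was 1.09, against -0.14 over all genes. The 15 that passed the filter, 2 of them through the DSS arrays alone, had a median of 2.12, which was 1.42 without DSS replicate 2, 1.56 without untreated replicate 2 and 1.41 over the 8 above the median on all arrays. Their summed signal over the 20 genes was 67640 to 94026 in DSS and 6987 to 13473 in untreated samples. The leading genes were Lyz2 (5.00 ± 0.73), Csf1r (4.02 ± 0.62) and Mpeg1 (4.18 ± 0.69), each with an adjusted p of 0.211 or more. The other probe sets of Csf1r, both dimmer, gave 2.69 and 1.52. Its brightest probe set is a large part of the sums above, with 33267 and 40991 in DSS and 4342 and 1162 in untreated samples. Among the dendritic cell markers of the list, Zbtb46 was the 1 lower gene, at -1.20 ± 0.74 on its brightest probe set. Its other probe sets gave 0.61, 0.45 and -2.20. Itgax had -0.13 ± 0.42, with groups that overlapped. These genes thus do not settle a direction for dendritic cell markers. Zbtb46 and Itgax were named after their values were seen. Cd163, Itgam, Mertk, Cx3cr1 and Flt3 did not pass the filter on low signals. Macrophages can express Ccl3, Ccl4 and Ccl5. The part of these cells in the chemokine values was not tested. Mast cell and basophil markers showed no settled direction. Of the 10 on the array, 2 were higher and 2 lower without overlap, against 14.8% and 25.1% of all genes without the filter. Their median was 0.27. The median of the 6 tested, 0.56, was -0.04 without untreated replicate 1 and 1.42 without untreated replicate 2. Of these 6, 1 gene, Hdc, passed the filter through the DSS arrays alone. The 10 markers summed to 3059 to 3411 in DSS and 1993 to 2269 in untreated samples. Their leading genes were Kit (1.30 ± 0.38, and -0.58 on its other probe set), Hdc (2.17 ± 0.93, and -0.61 on its other probe set) and Mcpt4 (-1.74 ± 0.91), while Fcer1a, Ms4a2, Mcpt1 and Tpsb2 did not pass the filter.

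Markers of 4 other cell types had medians between -0.39 and 0.50, and those of 3 of them turned sign on leaving out single arrays. Their counts without overlap stand against 17.2% of all genes higher and 23.8% lower. Neutrophil markers had a median of -0.39 over 7 genes (0 higher, 2 lower). The 2 lower genes, Mmp8 and Mpo, passed the filter through the untreated arrays alone, so that this median is partly set by the filter. Of all 11 neutrophil markers on the array, 5 had a difference above 0 and 6 below, with a median of -0.32. The median of the 7 was -0.91 without untreated replicate 1 and -0.0063 without DSS replicate 1. The neutrophil markers summed to 1321 to 2821 in DSS and 2177 to 2235 in untreated samples. B and plasma cell markers had a median of -0.09 over 6 genes (1 higher, 1 lower), which was -0.66 without untreated replicate 1, 0.35 without untreated replicate 2 and 0.33 without DSS replicate 1, with sums of 2548 to 3929 in DSS and 2394 to 4175 in untreated samples. Colon epithelial markers had a median of 0.50 over 11 genes (2 higher, 2 lower). That median was -0.28 without untreated replicate 2, -0.0039 without DSS replicate 1, -0.33 over the 8 genes above the median on all arrays and -0.17 over every probe set. The epithelial markers had sums of 13300 to 15482 in DSS and 9355 to 14048 in untreated samples. Stromal and endothelial markers had a median of 0.02 over 5 genes, with 0 apart, which was 0.62 without DSS replicate 1 and -0.49 without DSS replicate 2, and summed to 1700 to 3016 in DSS and 2453 to 2522 in untreated samples.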

How the data were processed

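Each of 4 samples was hybridised to 1 biotin-labelled array. The authors deposited linear intensities, 1 per probe set. The submitters' processing notes name GCOS, and its version is not given in the sources used here. Per the labels' protocols, RNA was isolated with a PicoPure kit and amplified with a RiboAmp HS kit. As deposited, the intensities of each array had a mean of 500.0 once the lowest and highest 2% were dropped. Amplification and this scaling can both affect bright probe sets. The number of arrays limits the precision.

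Of 45101 probe sets, 34958 carried 1 gene symbol, 932 several and 9211 none. Signals were taken as log2(signal + 32), which understates changes of dim genes. Probe sets above the median of their array on at least 2 arrays were kept, with the brightest kept probe set per gene. DSS and untreated samples were compared across 12425 genes in R 4.3.3 with limma 3.58.1 (lmFit, eBayes with an intensity trend) and Benjamini-Hochberg adjustment at 0.05. Lists are described by counts and medians. The members, lists, settings and motifs were chosen with earlier results of these data known. Named were the 4 chemokine genes, their receptors, at most 3 genes of each other list by smallest p, the 3 nearest profiles and the neighbouring genes. Other genes are marked as chosen after their values were seen. Marker genes of macrophages and mast cells that missed the filter are also named. Alternatives changed the scaling of arrays, the pseudocount, the filter, how a gene's probe sets were combined and the variance model, added the replicate number as a block, or left out 1 array at a time. The comparison with unnamed probe sets of similar level, and counts over list genes that missed the filter, were added after seeing the data.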

Additional observations from a re-analysis of the deposited data

How the results depend on the processing

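Each difference was recomputed under 17 alternatives. Ccl3 and Xcl1 kept a positive difference and did not pass under any of them, and Ccl5 kept a negative one. Ccl4 changed sign under common median scaling (0.22), when centred on T cell markers (0.061) and on leaving out single arrays, which gave -0.43 to 0.21, and it passed under none. Ccl5 gave -1.60 to -1.36 on leaving out single arrays and passed without either untreated array, but under no other alternative. Its value of -0.25 after quantile normalization is the smallest of the scalings, and the cause was not tested. The number of genes called, 0 as deposited, was 1 when genes had to exceed the median on all arrays, 3 with the mean of probe sets and 0 to 1785 on leaving out single arrays. With the replicate number as a block it was 67, but same-numbered samples deviated from their group means with a correlation of only 0.05, so they share only a number. Genes at least 2-fold apart without overlap numbered 567, and 126 under the stricter filter, where fewer genes were tested, 969 when every probe set was tested, and 1227 to 2402 on leaving out single arrays. The share of them that were higher after DSS was 47.8% as deposited, 61.8% after quantile normalization, 75.4% after common median scaling, 64.1% after cyclic loess and 66.9% when centred on T cell markers. The median of all genes was -0.07, 0.01, 0.25, -0.01 and 0.10 in turn. Of 187 recomputed list medians, 47 moved by more than the spread between replicates and 31 changed sign. Dim receptors such as Xcr1 cannot be ordered at these signals.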
